A study of Homo sapiens with 6 samples.

Results

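Tubulin genes were examined on expression arrays of NCI-H292 cells, a line grown from a human mucoepidermoid lung cancer. The members were the probe sets annotated to a single gene among TUBA1A, TUBA1B, TUBA1C, TUBA4A, TUBB, TUBB2A, TUBB3, TUBB4B, TUBB6 and TUBG1, matched by current or older symbol. There were 20 such probe sets for the 10 genes, out of 54613 probe sets and 19775 named genes on the array. Of the 20, 19 were bright enough to be tested, which required 3 or more of the 6 arrays to show a signal over that array's median. The exception was 1565668_at of TUBA1B, which lay below the array median on all 6 arrays and is given by value only.

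Cells of the CT45A1 overexpression group stably carried CT45A1-Venus, a fusion to a fluorescent protein, and cells of the CT45A1 negative group stably carried the vector with Venus alone. Each group had 3 replicates with 1 array each, and the labels say neither whether these were separate cultures nor whether a line was 1 clone. The p-values hence reflect array-to-array spread, which may be technical. Values are MAS5 signals, a linear brightness per probe set, and each difference is log2 of overexpression minus log2 of negative. CT45 signal at the brighter of its probe sets was 518, 700.1 and 445 on the overexpression arrays, against 23.1, 15.8 and 1.95 on the negative arrays, and the probe set covers several CT45 genes. All 6 epithelial markers and the 4 airway and mucoepidermoid markers with a probe set annotated to that gene alone exceeded the array median on all 6 arrays. Of the other lineages this held for 0 of 5 fibroblast markers, 0 of 4 leukocyte markers (CD14 exceeded it on 5 arrays) and 2 of 3 endothelial markers, of which PECAM1 and CDH5 were above the median at signals between 87.01 and 240.1 while VWF was below it on every array.

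Microtubules are hollow polymers of a dimer of alpha tubulin and beta tubulin, and gamma tubulin seeds them at the centrosome. Humans carry several genes for alpha and for beta tubulin, which encode closely similar proteins that differ most at their tails. Cells also hold tubulin messenger RNA in check by autoregulation, in which free tubulin dimers trigger decay of tubulin messages as they are translated. In lung and other cancers, the beta tubulin TUBB3, typical of neurons, is known for its association with resistance to drugs of the taxane class.

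Promoter sequences are shown for TUBA1B, TUBA1C, TUBB2A and TUBB3, the members with at least 1 probe set at an unadjusted p under 0.05 in the comparison below. Each is the stretch of 250 bases directly before the most downstream start that RefSeq lists for the gene on GRCh38.p14, read 5′ to 3′ on the gene's strand. TUBA1B lies on the minus strand of chr12:49131396-49131645, TUBA1C on the plus strand of chr12:49264832-49265081, TUBB2A on the minus strand of chr6:3157545-3157794 and TUBB3 on the plus strand of chr16:89923092-89923341. Capitals mark matches on either strand to TATAA, the core of a TATA box, to CCAAT, known as the CAAT box, and to GGGCGG, the core of a GC box; these motifs were chosen with the sequences in view.
TUBA1B: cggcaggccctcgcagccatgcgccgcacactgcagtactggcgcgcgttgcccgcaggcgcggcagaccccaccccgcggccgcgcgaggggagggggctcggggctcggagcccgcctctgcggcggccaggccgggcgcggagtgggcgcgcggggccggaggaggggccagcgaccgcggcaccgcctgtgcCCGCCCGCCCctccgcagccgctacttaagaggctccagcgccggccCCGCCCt
TUBA1C: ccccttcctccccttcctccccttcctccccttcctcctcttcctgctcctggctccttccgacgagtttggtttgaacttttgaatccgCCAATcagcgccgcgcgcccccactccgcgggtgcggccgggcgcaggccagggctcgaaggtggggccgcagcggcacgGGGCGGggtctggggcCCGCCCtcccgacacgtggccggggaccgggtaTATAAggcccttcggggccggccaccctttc
TUBB2A: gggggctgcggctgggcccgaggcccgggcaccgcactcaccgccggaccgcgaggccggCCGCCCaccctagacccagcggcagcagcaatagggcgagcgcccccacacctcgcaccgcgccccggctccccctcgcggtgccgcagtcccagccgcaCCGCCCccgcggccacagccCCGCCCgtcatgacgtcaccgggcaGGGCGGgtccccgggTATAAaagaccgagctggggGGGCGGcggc
TUBB3: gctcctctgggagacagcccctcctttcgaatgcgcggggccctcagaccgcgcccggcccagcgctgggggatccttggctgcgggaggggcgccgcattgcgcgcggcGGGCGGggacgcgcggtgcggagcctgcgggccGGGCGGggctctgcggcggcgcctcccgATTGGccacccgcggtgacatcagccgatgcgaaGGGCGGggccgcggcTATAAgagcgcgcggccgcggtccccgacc

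TATAA begins 31 bases before the start in TUBA1C and 30 bases before it in TUBB2A and in TUBB3, while the TUBA1B window has no match on either strand. RefSeq lists 15 start windows for the 10 members, of which 2 of TUBA1C overlap. TATAA occurred in 5 of them, from 5 genes (TUBA1C, TUBA4A, TUBB2A, TUBB3 and TUBB4B), against 18.9% of 35116 windows of the same length over all genes. CCAAT occurred in 9 of the 15, from 7 genes, against 32% of all windows. GGGCGG occurred in 9, from 8 genes, against 42.6% of all windows. Whether these motifs relate to the differences below was not tested.

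The comparison asked whether tubulin transcripts differed between CT45A1 overexpression and CT45A1 negative cells. None of the 19 tested probe sets passed an adjusted p under 0.05 in limma, against 3.23% of all 27618 probe sets tested (1.89% higher and 1.34% lower). At an unadjusted p under 0.05 there were 6 of 19, against 20.7% of all probe sets. Those under that p and lower were 4 of 19, against 8.5% of all probe sets. The differences of the 19 lay between -0.29 and 0.35. The largest upward difference was at TUBB3 and the largest downward ones were at TUBB2A and TUBA1A. The median over the 19 was -0.07, against 0.03 over all probe sets tested. At 5 probe sets the 3 arrays of one group did not overlap those of the other, against 26.6% of all probe sets. Those apart and lower with CT45A1 were 4 of 19, against 11.4% of all probe sets, and those apart and higher were 1 of 19, against 15.2%. In total RNA from cultures, fewer cells of a kind and less RNA per cell cannot be told apart.

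**Figure D1:**
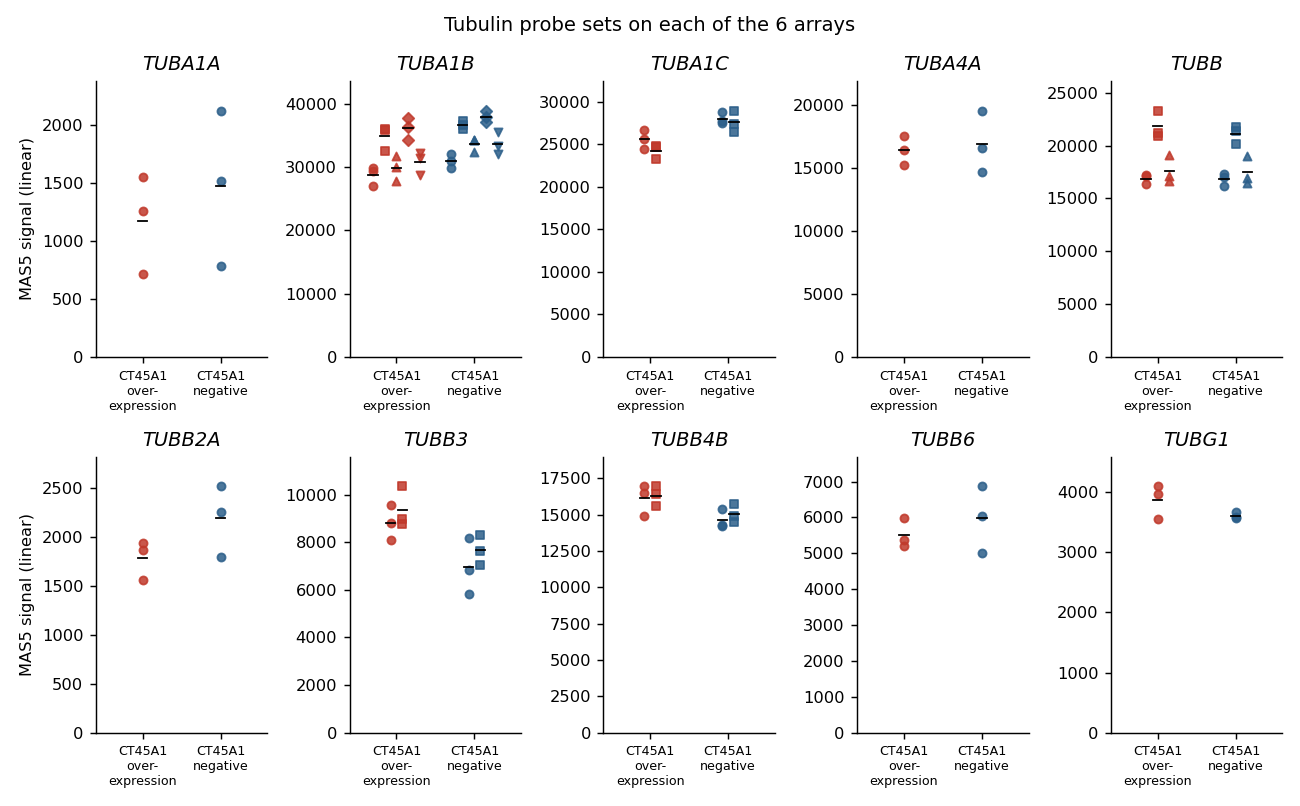
MAS5 signal (linear scale from 0) of the 19 tested tubulin probe sets on the 3 CT45A1 overexpression arrays (left of each panel) and the 3 CT45A1 negative arrays (right). Each marker shape is 1 probe set of the gene and the short line is its mean. The 2 TUBA1C probe sets are lower on all overexpression arrays, as are 201090_x_at and 211072_x_at of TUBA1B. TUBB3 is higher at 1 of its 2 probe sets on all of them.

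TUBA1A, a main alpha tubulin of developing neurons that is also made in many dividing cells, varied more between arrays of a group than between the groups. Its only probe set gave signals of 1546, 1253 and 714 on the overexpression arrays, against 1514, 2122 and 781 on the negative arrays. Replicate 3 was the lowest array in each group and the groups overlapped. The difference was -0.29 (SE 0.34, limma adjusted p = 0.680, n = 3 per group), with a 95% interval of -1.05 to 0.48. Its pooled SD within groups was 0.66, larger than at 96.7% of the probe sets tested, whose median was 0.171. Without overexpression replicate 3 its difference was 0.03 and without negative replicate 2 it was 0.04.

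TUBA1B and TUBA1C, the alpha tubulins common in dividing cells, had 7 tested probe sets between them, all ending in _x_at, a suffix for probes that can match several transcripts. The probes can therefore share signal between these near-identical genes. TUBA1C at 211750_x_at had signals of 24779, 24629 and 23228 on the overexpression arrays, against 28940, 27395 and 26427 on the negative arrays. At 209251_x_at the overexpression arrays gave 25569, 26684 and 24409, against 28757, 27692 and 27491 on the negative arrays. Every overexpression array lay below every negative array at both TUBA1C probe sets. In limma with n = 3 per group, 211750_x_at differed by -0.19 (SE 0.06, adjusted p = 0.0988), or 0.878-fold. The same fit gave 209251_x_at -0.13 (SE 0.05, adjusted p = 0.200), or 0.913-fold. Both TUBA1C probe sets came closer to 0 after quantile normalization, at -0.082 and -0.013. After cyclic loess they were -0.065 and -0.0077 (limma adjusted p = 0.481 and 0.945). Centring on the array median moved them away from 0, to -0.33 and -0.28 (limma adjusted p = 0.00844 and 0.0140), and both passed. Centring on the median of the kept probe sets, chosen after seeing the data, gave -0.26 and -0.20 (limma adjusted p = 0.0481 and 0.0802). Only 211750_x_at passed there.

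TUBA1B had the largest difference of its 5 tested probe sets at 211072_x_at, with signals of 30011, 31783 and 27853 on the overexpression arrays, against 34248, 32468 and 34370 on the negative arrays. Those groups did not overlap, and the difference was -0.17 (SE 0.06, limma adjusted p = 0.135, n = 3 per group), against -0.064 after quantile normalization and -0.044 after cyclic loess. The other 4 differed by -0.07 to -0.13, and 201090_x_at was the 1 among them whose groups did not overlap. As deposited, these 4 lay below 0, while after cyclic loess all 4 lay above 0 and after quantile normalization 3 of them did. Centring on the array median went the other way, with 211072_x_at at -0.32 (limma adjusted p = 0.00777). The other 4 then differed by -0.22 to -0.27 (limma adjusted p = 0.0209 to 0.0291), so all 5 passed under that scaling. The untested 1565668_at gave 29.9, 16.3 and 44.2 on the overexpression arrays, against 34.5, 41.5 and 48.7 on the negative arrays, all dim.

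TUBA4A, an alpha tubulin abundant in several differentiated tissues, had signals of 17589, 16490 and 15278 on the overexpression arrays, against 16583, 19595 and 14726 on the negative arrays. The negative arrays held both the highest and the lowest signal. The difference was -0.04 (95% interval -0.25 to 0.18, limma adjusted p = 0.865, n = 3 per group), and it lay above 0 after quantile normalization and after cyclic loess, at 0.03 and 0.07. Centring on the array median gave -0.18 (limma adjusted p = 0.257).

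TUBB3, the neuron-typical beta tubulin, had the largest upward difference among the 10 members. At 213476_x_at its signals were 10353, 8761 and 8999 on the overexpression arrays, against 7633, 8302 and 7038 on the negative arrays. At 202154_x_at they were 9552, 8081 and 8808 with CT45A1, against 5833, 8195 and 6843 without it. All overexpression arrays were above all negative arrays at the first, whereas at the second negative replicate 2 lay above overexpression replicate 2. In limma with n = 3 per group, 213476_x_at differed by 0.29 (SE 0.08, adjusted p = 0.0873), or 1.22-fold, with a 95% interval of 0.11 to 0.47. The same fit gave 202154_x_at 0.35 (SE 0.11, adjusted p = 0.117), or 1.28-fold, with an interval of 0.10 to 0.60, and neither passed. Both stayed above 0 in all 17 alternatives run on them. Of these, 213476_x_at passed in 2, quantile normalization (0.36, limma adjusted p = 0.0370) and cyclic loess (0.37, limma adjusted p = 0.0408). The other, 202154_x_at, passed in 1, without negative replicate 2 (0.48, limma adjusted p = 0.0443). After centring on the array median they were 0.15 and 0.21 (limma adjusted p = 0.301 and 0.252). Both names end in _x_at, so these probes too can share signal with other tubulins.

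TUBB2A, a beta tubulin prominent in brain and present in many other cells, had signals of 1941, 1560 and 1867 on the overexpression arrays, against 2260, 2522 and 1801 on the negative arrays. The groups overlapped only through negative replicate 3. The difference was -0.29 (SE 0.13, limma adjusted p = 0.235, n = 3 per group), with a 95% interval of -0.57 to -0.005, and it stayed below 0 in all 18 alternatives run on it.

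TUBB, the main beta tubulin of most dividing cells, had small differences at every probe set. Its 3 probe sets had differences of 0.003, 0.05 and 0.01, with 95% intervals that together ran from -0.15 to 0.18. At 212320_at, the one whose name carries no suffix for shared probes, the signals were 19125, 16649 and 17145 on the overexpression arrays, against 16494, 19030 and 16914 on the negative arrays. The groups were interleaved there. All 3 lay above 0 after quantile normalization (0.055 to 0.12) and after cyclic loess (0.11 to 0.16), again without passing. They lay below 0 after centring on the array median (-0.14 to -0.10), also without passing.

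TUBB4B, a beta tubulin made in most tissues, had signals of 16941, 16480 and 14920 on the overexpression arrays at 208977_x_at, against 14266, 15367 and 14185 on the negative arrays. At 213726_x_at they were 16951, 16386 and 15591 with CT45A1, against 14935, 15765 and 14528 without it. Overexpression replicate 3 fell below negative replicate 2 at both. The differences of 0.14 and 0.11 did not pass (limma adjusted p = 0.250 and 0.297, n = 3 per group). After cyclic loess they were 0.24 and 0.22 (limma adjusted p = 0.0659 and 0.0670), and after centring on the array median -0.0042 and -0.031.

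TUBB6, a divergent beta tubulin, had signals of 5981, 5385 and 5196 on the overexpression arrays, against 6054, 6869 and 5004 on the negative arrays. Replicate 3 was again the lowest array in each group. The difference was -0.10 (95% interval -0.34 to 0.13, limma adjusted p = 0.617, n = 3 per group), and 0.0018 without negative replicate 2.

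TUBG1, the main gamma tubulin, had signals of 4100, 3964 and 3557 on the overexpression arrays, against 3568, 3672 and 3589 on the negative arrays. Overexpression replicates 1 and 2 were above all negative arrays and replicate 3 was below them. The difference was 0.10 (95% interval -0.06 to 0.26, limma adjusted p = 0.462, n = 3 per group), and 0.14 after quantile normalization and after cyclic loess. It was -0.045 after centring on the array median.

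**Figure D2:**
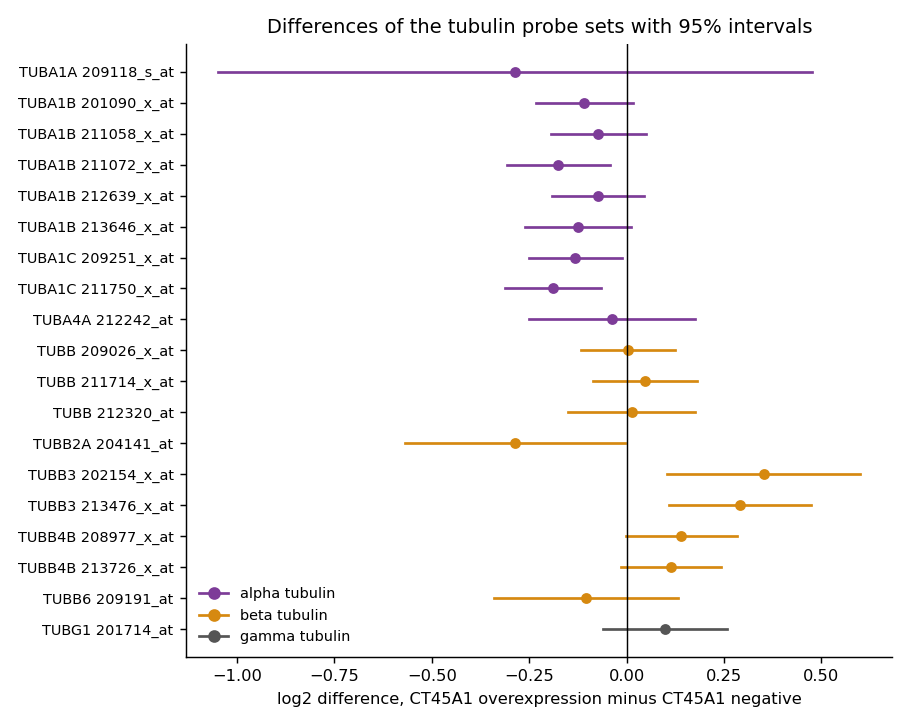
Log2 difference (CT45A1 overexpression minus CT45A1 negative, n = 3 arrays each) of the 19 tested tubulin probe sets, with 95% intervals from limma as horizontal lines. The intervals of TUBB3 lie above 0, and those of both TUBA1C probe sets, TUBA1B at 211072_x_at and TUBB2A lie below it. They are not adjusted for the number of probe sets tested, and the interval of TUBA1A is the widest.

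The medians of the alpha and beta tubulin probe sets lay on different sides of 0 as deposited. The 9 alpha probe sets had a median of -0.13, with 9 below 0, and the 9 beta probe sets had a median of 0.05, with 2 below 0, against 44.5% of all probe sets tested. By gene the beta tubulins were split. TUBB2A (-0.29) and TUBB6 (-0.10) lay below 0 with 1 probe set each, and TUBB, TUBB3 and TUBB4B lay above it with 3, 2 and 2. Probe sets of 1 family share targets, so these counts are not independent. Both sides depended on the scaling. After quantile normalization 5 of 9 alpha differences lay below 0 (median -0.01) and after cyclic loess 4 of 9 (median 0.01), while 2 of 9 beta differences lay below 0 under each (medians 0.12 and 0.16). Centring on the array median lowers every difference by the same 0.145, and it gave 9 of 9 alpha below 0 (median -0.27), 7 of 9 beta below 0 (median -0.10) and a median of -0.11 over all probe sets. Centring on the median of the kept probe sets, also a uniform shift, gave 9 of 9 alpha and 5 of 9 beta below 0 (median -0.02). The beta median exceeded the alpha median by 0.173 as deposited, which a uniform shift cannot alter, by 0.126 after quantile normalization and by 0.157 after cyclic loess.

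**Figure D3:**
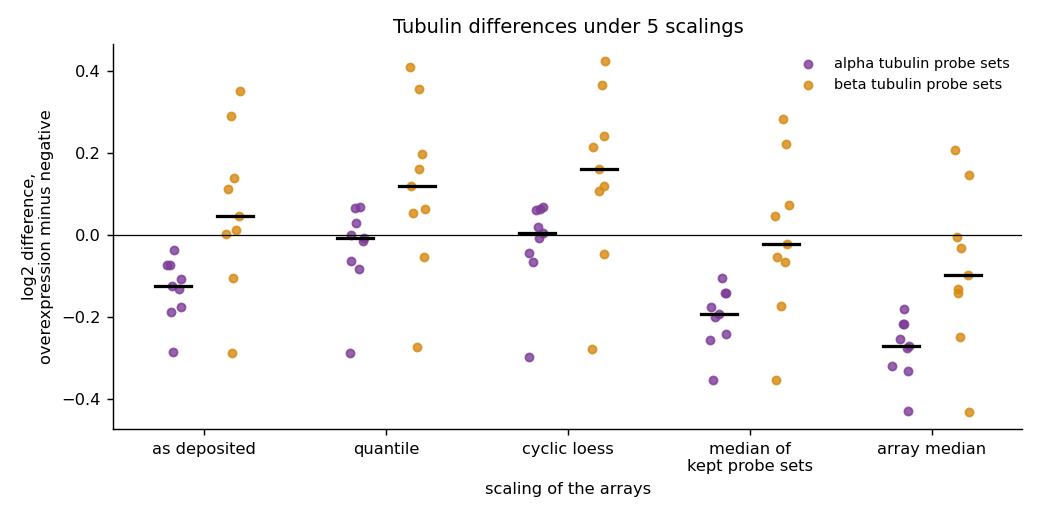
Log2 differences (CT45A1 overexpression minus CT45A1 negative) of the 9 alpha and 9 beta tubulin probe sets under 5 scalings of the arrays; each point is a probe set and black lines are medians. Alpha tubulin is centred near 0 after quantile normalization (-0.01) and cyclic loess (0.01) and lies wholly below 0 in the other 3.

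Tubulin probe sets were among the brightest on the array. On its dimmest array, each of the 19 was brighter than 80.4% to 99.9% of all probe sets. Differences over all tested probe sets moved with brightness. Of the 396 with a mean log2 signal of 14 or more, 88.1% lay below 0, with a median of -0.11, whereas of the 9764 between 6 and 8 only 34.7% did, with a median of 0.14. The tested TUBA1B, TUBA1C and TUBA4A probe sets all have means of 14 or more, and their differences of -0.04 to -0.19 lie around the median of those bright probe sets. TUBB at 0.003 to 0.05 lies above that median. Whether probes of such brightness were near saturation was not tested.

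Several tubulins also moved within groups with the array's actin ratio, the signal at the 3' end of actin over that at its 5' end, which is higher where RNA is degraded or labelled copies are short. The overexpression arrays had ratios of 1.42, 1.49 and 1.55, against 1.70, 1.64 and 1.91 for the negative arrays. At TUBA1A, TUBA4A, TUBB6 and both TUBB4B probe sets, the order of the arrays was the exact reverse of this ratio in each group. These are 5 of 19 tubulin probe sets (26.3%), against 5.31% of all probe sets tested, and the TUBB4B ones can share signal. The same ratio for the control gene GAPDH was 1.01, 0.97 and 1.04 on the overexpression arrays, against 1.09, 1.05 and 1.18 on the negative arrays. Among negative arrays the GAPDH ratio had the same order as the actin ratio, so these 5 probe sets were the reverse of it too. Among overexpression arrays the GAPDH ratio was lowest on replicate 2, whereas these 5 were highest on replicate 1, so they did not follow it there. With the actin ratio as a covariate TUBA1A differed by -1.92 (SE 0.20, limma adjusted p = 0.00217) and TUBB6 by -0.55 (SE 0.10, limma adjusted p = 0.0257). Both then passed. TUBA4A and TUBB2A had differences of -0.42 and -0.70 in that fit (adjusted p = 0.0592 and 0.0664), and TUBB3 had 0.02 at 213476_x_at and 0.21 at 202154_x_at. The actin ratio did not overlap between the groups, so its part and that of the group cannot be told apart.

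**Figure D4:**
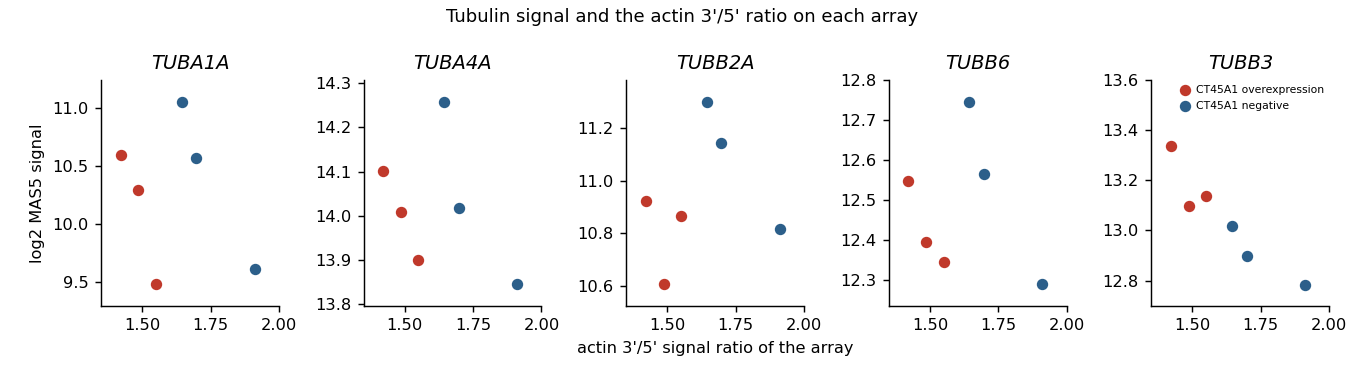
Log2 MAS5 signal of 5 tubulins (TUBB3 at 213476_x_at) against the actin 3'/5' signal ratio of the same array, for 3 CT45A1 overexpression and 3 CT45A1 negative arrays; vertical axes differ between panels. TUBA1A, TUBA4A and TUBB6 fall with the ratio within each group, and the ratios of the groups do not overlap (1.42 to 1.55 against 1.64 to 1.91).

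Genes that work with tubulin were taken as 9 lists with 1 value per gene, its brightest tested probe set. Over all 11895 genes tested, 3.83% passed (1.94% higher and 1.89% lower), and 0 of the 10 tubulin genes did. The tubulin genes had a median of -0.05, with 6 of 10 below 0, against 0.01 and 48.3% over all genes.

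Tubulins outside the 10 members were mostly dim or had no probe set annotated to them alone. Of 13 genes on that list, 9 had such a probe set and 4 were tested, 0 of which passed (3 above 0 and 1 below, median 0.10). Probe sets with several symbols were not examined for the rest. TUBG2, the second gamma tubulin, had signals of 409, 489 and 473 on the overexpression arrays, against 290.5, 384 and 370 on the negative arrays. These groups did not overlap, with a difference of 0.40 (SE 0.14, limma adjusted p = 0.151, n = 3 per group). The platelet beta tubulin TUBB1 and the neuron-rich TUBB2B lay below the array median on all 6 arrays at every probe set they had.

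New tubulin is folded by the chaperonin CCT with the help of prefoldin, and the cofactors TBCA to TBCE then join alpha to beta. Of 12 tested chaperonin and prefoldin genes 0 passed, with 11 below 0, 1 above and a median of -0.11. Most of these genes were bright, with mean log2 signals between 12 and 14, where 69.1% of all tested probe sets lay below 0 with a median of -0.07. PFDN1, a prefoldin subunit, had signals of 2531, 2460 and 2553 on the overexpression arrays, against 2691, 3116 and 2977 on the negative arrays, a difference of -0.22 (SE 0.08, limma adjusted p = 0.141, n = 3 per group). Of 7 tested folding cofactors 0 passed, with 6 above 0 and a median of 0.10. Among them ARL2, a small GTPase that acts with the cofactors, differed by 0.18 (SE 0.10, limma adjusted p = 0.325). In the autoregulation list, which holds TTC5, the factor that recognises nascent tubulin, and SCAPER, which TTC5 recruits, 0 of 4 passed and the median was 0.01. SCAPER had the smallest p of that list and differed by 0.17 (SE 0.13, limma adjusted p = 0.489).

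Of 9 tested genes of the gamma-tubulin ring complex, the template on which microtubules are seeded, 0 passed, with 6 above 0 and a median of 0.06. TUBGCP6, a structural subunit, gave 91.6, 142 and 129 on the overexpression arrays, against 48.4, 39.2 and 58.2 on the negative arrays. It exceeded the array median on the overexpression arrays alone, so it was tested only through the group where it was high. The lack of overlap and the limma adjusted p of 0.0707 are therefore no support for a difference. Its negative mean lay below the median of the negative arrays, and its overexpression mean was 1.61-fold that median. The log2 array median was itself 0.145 higher in the overexpression group, so 1.61 is not a lower limit of a difference. Of 14 tested tubulin modifying enzymes 0 passed, with 10 above 0 and a median of 0.11. TTLL12, a member of the tubulin tyrosine ligase-like family, differed by 0.21 (SE 0.09, limma adjusted p = 0.211), with 0.08 at its other probe set. Of 5 severing genes 0 passed, with a median of -0.06. FIGNL1, a relative of the severing enzyme fidgetin, differed by -0.18 (SE 0.08, limma adjusted p = 0.237), with 0.09 at its other probe set.

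Only 2 genes in these lists passed. Of 28 tested microtubule-associated proteins and stathmins, MAP4 rose, 0 fell, and the median was -0.02. MAP4, a widespread protein that stabilises microtubules, had signals of 3202, 3192 and 3075 on the overexpression arrays, against 2609, 2529 and 2621 on the negative arrays. Those groups did not overlap and the difference was 0.29 (SE 0.06, limma adjusted p = 0.0399, n = 3 per group). Its 5 other probe sets differed by -0.46 to 0.54, and the mean over its probe sets by 0.09 (limma adjusted p = 0.597). Of 24 tested genes of interphase motors, DYNLL1 fell, 0 rose, and the median was -0.06. DYNLL1, a light chain of cytoplasmic dynein, had signals of 17413, 17064 and 16064 on the overexpression arrays, against 21014, 20216 and 19178 on the negative arrays. All overexpression arrays were below all negative ones, with a difference of -0.26 (SE 0.06, limma adjusted p = 0.0401, n = 3 per group) and -0.15 after cyclic loess (limma adjusted p = 0.152). Its mean log2 signal was 14.04 in the overexpression and 14.30 in the negative group. Of all tested probe sets with a mean of 14 or more, 88.1% lay below 0, with a median of -0.11. MAP4 passed in 8 and DYNLL1 in 10 of 19 alternatives, and both lost the call when any single array other than negative replicate 3 was left out.

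**Figure D5:**
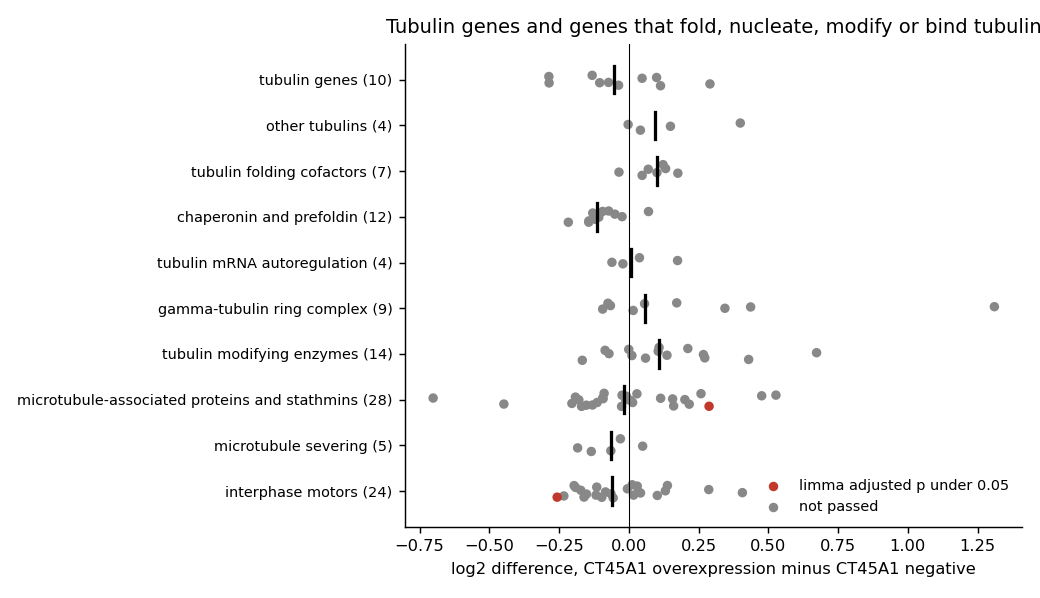
Log2 difference (CT45A1 overexpression minus CT45A1 negative) of the 10 tubulin genes and of the tested genes of 9 lists, with the number tested in brackets; black lines are medians and red points passed a limma adjusted p under 0.05. The red points are MAP4 and DYNLL1, and the point farthest right is TUBGCP6, whose negative signals are dim.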

How the data were processed

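Total RNA of 6 NCI-H292 samples was amplified and biotin-labelled by a 3' in vitro transcription kit, as the labels' protocols state. For each of 54675 probe sets the authors deposited a linear intensity, the MAS5 signal; the submitters' processing notes name MAS5 and affy, while versions and a genome build are not given in the sources used here. With 2% trimmed from each side, the mean was 500.1 on every array, whereas the median was 83.3, 82.0 and 79.2 on the overexpression arrays and 72.6, 72.9 and 75.6 on the negative ones.

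The 62 control probe sets were left out, and the intensities were taken to log2 with no offset. Probe sets above the array median on at least 3 of 6 arrays (27618) were fitted with limma (1 mean per group, eBayes with a variance trend, two-sided), and p-values were adjusted by Benjamini-Hochberg over all of them. For gene values, the brightest tested probe set of a gene was taken and p-values were adjusted over 11895 genes. Detection calls were not used here, and the number of arrays limits the precision. Names came from the platform's annotation, updated through Entrez identifiers in RefSeq's GRCh38.p14 table. Of the remaining probe sets, 41091 had 1 symbol, 1801 several and 11721 none, and 1 with several symbols that lists a member was not used. Probe sequences and protein sequences were not used here.

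The members and lists were chosen with earlier results of these data known. All members are described. From each other list the genes past the threshold are named (up to 4), or else the one with the smallest p (the rule allowed up to 2). No 2 arrays were duplicates, with at most 0.00183% of values identical. The fit was tested on simulated arrays. The alternatives are in the closing section. Fits ran in limma 3.58.1 under R 4.3.3, and plots in matplotlib 3.10.9 under Python 3.11.15.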

Additional observations from a re-analysis of the deposited data

How the results depend on the processing

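The tubulin count of 0 in each direction held in most alternatives. Over 328 refits of single tubulin probe sets under 17 or 18 alternatives each, 279 kept direction and side of the threshold, 13 newly passed and 36 changed sign. Among tubulin probe sets, quantile normalization, cyclic loess and leaving out negative replicate 2 each gave 1 higher (range 0 to 1 on leaving out single arrays). Of them 7 were lower after centring on the array median, 1 (TUBA1C) after centring on the median of the kept probe sets, chosen after seeing the data, and 2 with the actin covariate. For tubulin genes the counts were 1 higher after quantile normalization and cyclic loess, 2 lower after centring on the array median and 3 lower with the covariate, the third being TUBA4A.

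Over all probe sets, 522 were higher and 370 lower. These became 266 and 220 with dim probe sets kept, 1 and 3 without the variance trend, 250 and 196 with names in _x_at and _s_at dropped, and 76 to 748 and 80 to 404 on leaving out single arrays. Centring on the array median gave 2588 lower and centring on the kept median 814 lower. Over genes, 231 were higher and 225 lower. These became 5 and 6 without the variance trend, and 39 to 311 and 52 to 251 on leaving out single arrays. Dropping names in _x_at and _s_at gave 149 genes higher, and keeping dim probe sets 154 higher and 152 lower. The genes lower were 135 with probe sets averaged per gene, 1650 after centring on the array median and 471 after centring on the kept median. The causes were not tested.

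None of the differences that changed sign had passed. After quantile normalization the TUBA1B values were 4.7e-05, 0.069 and 0.066 (201090_x_at, 211058_x_at and 212639_x_at) and TUBA4A was 0.030. After cyclic loess TUBA1B was 0.020, 0.062, 0.064 and 0.0057 (213646_x_at), and TUBA4A 0.068. Centring moves every difference of the fit by 1 amount, so changes of sign under it are fixed by the size of the difference. After centring on the array median TUBB was -0.14, -0.10 and -0.13, TUBB4B -0.0042 and -0.031, and TUBG1 -0.045. After centring on the kept median TUBB was -0.065, -0.021 and -0.055. With the covariate TUBB was -0.11, -0.11 and -0.15, TUBB4B -0.011 and -0.022, TUBG1 -0.0067 and SCAPER -0.18. On leaving out single arrays TUBA1A ranged from -0.69 to 0.036, TUBA4A from -0.13 to 0.072, TUBB from -0.027 to 0.027 (209026_x_at), -0.0013 to 0.077 (211714_x_at) and -0.046 to 0.076 (212320_at), and TUBB6 from -0.23 to 0.0018.

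With the replicate number as a block, 0 tubulin probe sets passed, and 702 higher and 487 lower over all probe sets (270 and 266 genes). Deviations of same-numbered arrays correlated at -0.011, -0.0068 and 0.10, and those of differently numbered arrays at -0.10 to 0.11. With 3 arrays per group these values cannot settle whether the numbers pair the arrays. Saturation of the brightest probe sets was not tested, and 3 arrays per group left 95% intervals as wide as -1.05 to 0.48 for TUBA1A.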
